A study of Mus musculus with 4 samples.

Results

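Half-methylated CpG-dense windows are 1 kb stretches of the genome that hold many CpGs and yet carry methylation on an intermediate share of them. They were chosen as windows of the autosomes and X with 40 or more CpG positions listed in any of 4 whole-genome bisulfite libraries, 10 or more reads over CpGs in each library, and a mean methylation level from 20% to under 50%. A window's level was the methylated reads over all C or T reads, pooled over its CpGs within a library, and the mean over the 4 libraries decided membership. The members were thus selected on their measured mean level, CpG number and depth. The rule gave 1210 windows of the 20523 CpG-dense windows with 10 reads in each library. Of the remaining CpG-dense windows, 18253 lay under 20% and 1060 at 50% or more. The level range is given as a description, while the contrast between groups was not used in choosing.

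The libraries came from mouse embryonic stem cells of an Ogt fl/fl line, in which both groups carried the floxed alleles. Ogt encodes O-GlcNAc transferase, which attaches N-acetylglucosamine to nuclear and cytosolic proteins. The 2 Ogt iKO libraries came from cells given 4-hydroxytamoxifen (4OHT) for 6 days and sorted as YFP+, and the 2 control libraries from cells cultured without 4OHT, so that drug, reporter sort and knockout cannot be told apart. Both groups grew over mitomycin C-treated fibroblast feeders, which were removed by cell sorting, and nothing in the labels says that replicates were separate clones or derivations. The measured spread may therefore be technical. Markers of the stem cell state are read from RNA or protein and were not analysed here.

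CpGs are methylated by default in mammalian genomes, and CpG-dense stretches (CpG islands) are the main exception, usually free of the mark. Intermediate levels in such a stretch can come from a mark on 1 parental allele, as at imprinting control regions, from a mark that differs from cell to cell, or from a window that spans the border between an unmethylated island and its methylated flank. TET dioxygenases oxidise 5-methylcytosine and associate with OGT in stem cells, which is why the study asked how loss of Ogt alters methylation. Bisulfite sequencing reads 5-methylcytosine and 5-hydroxymethylcytosine alike.

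Promoters (250 bases before and 50 after the start site, from RefSeq, GRCm38.p6, which is mm10) of 4 members are shown. They stand for an imprinted locus (Peg3), germ cell genes (Dazl and Sycp2) and an island border (Tasor2). The Dazl window also lay between neighbours at 3.54% and 56.6%, so these 4 promoters do not stand for separate layouts. Each reads 5′ to 3′ on the gene's own strand, and capitals mark the CpGs whose methylation was measured.
Peg3 promoter, chr7:6730370-6730669, minus strand: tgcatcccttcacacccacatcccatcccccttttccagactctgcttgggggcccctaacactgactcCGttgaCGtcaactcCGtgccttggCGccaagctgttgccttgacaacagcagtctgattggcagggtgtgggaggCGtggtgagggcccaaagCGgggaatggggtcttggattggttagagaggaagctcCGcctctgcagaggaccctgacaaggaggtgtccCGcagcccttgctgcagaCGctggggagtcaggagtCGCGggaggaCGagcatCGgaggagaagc
Dazl promoter, chr17:50293571-50293870, minus strand: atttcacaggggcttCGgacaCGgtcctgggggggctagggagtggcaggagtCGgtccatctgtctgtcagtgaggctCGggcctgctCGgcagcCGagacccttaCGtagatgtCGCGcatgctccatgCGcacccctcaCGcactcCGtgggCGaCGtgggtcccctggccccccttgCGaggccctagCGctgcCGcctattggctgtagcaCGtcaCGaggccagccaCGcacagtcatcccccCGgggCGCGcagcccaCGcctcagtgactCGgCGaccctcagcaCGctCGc
Sycp2 promoter, chr2:178407609-178407908, minus strand: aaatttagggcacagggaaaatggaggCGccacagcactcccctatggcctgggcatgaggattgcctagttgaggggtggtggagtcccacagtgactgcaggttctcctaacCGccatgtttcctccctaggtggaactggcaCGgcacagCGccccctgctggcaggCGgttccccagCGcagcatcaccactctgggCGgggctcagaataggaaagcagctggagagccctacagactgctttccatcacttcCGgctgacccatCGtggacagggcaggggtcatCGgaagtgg
Tasor2 promoter, chr13:3611059-3611358, minus strand: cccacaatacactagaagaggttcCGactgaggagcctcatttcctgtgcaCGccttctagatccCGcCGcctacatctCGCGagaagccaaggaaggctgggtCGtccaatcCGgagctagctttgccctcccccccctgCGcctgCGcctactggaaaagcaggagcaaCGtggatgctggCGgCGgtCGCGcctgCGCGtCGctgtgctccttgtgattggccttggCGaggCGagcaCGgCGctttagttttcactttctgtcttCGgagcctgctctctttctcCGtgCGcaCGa

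These promoters hold 13, 28, 10 and 26 CpGs, in that order. Over the Tasor2 promoter 2 of 201 reads were methylated in iKO cells and 2 of 159 in controls, while the 1 kb window around it read 20.2% and 19.2% in iKO cells and 25% and 30.25% in controls. Over the Dazl promoter 1 of 32 and 13 of 34 reads were methylated in iKO replicates 1 and 2, against 19 of 66 and 37 of 50 in control replicates 1 and 2. The levels were therefore 3.12% and 38.2% against 28.8% and 74.0%, with overlapping groups. Over the Sycp2 promoter they were 10.5% and 16.7% against 12.5% and 41.7%, on 8 to 38 reads, and the groups overlapped too. Over the Peg3 promoter 36 of 62 and 9 of 51 reads were methylated in the iKO libraries, against 9 of 11 and 0 of 56 in the controls. Neighbouring CpGs of 1 fragment are read together, so these reads stand for far fewer DNA molecules, and single promoters were measured coarsely.

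Promoters in half-methylated windows held fewer CpGs than those in CpG-dense windows of low methylation. Promoters whose start site fell in a member held a median of 20 CpGs in 300 bases (173 promoters), against 25 in CpG-dense windows under 20% (11037 promoters). The hexamer CACGTG, an E-box that reads the same on both strands, occurred in 27 of the 173 (15.6%), in 10.8% of promoters in CpG-dense windows under 20%, and in 7.197% of all 32585 RefSeq promoters. The hexamer TGCCGC, the core of the ZFP57 motif, searched on both strands, occurred in 15.6%, 23.8% and 11.7% of the same sets. CpG-dense windows at 50% or more held only 14 promoters, with a median of 17.5 CpGs. Among these 14, CACGTG occurred in 14.3% and TGCCGC in 28.6%, so fewer CpGs and the CACGTG share were not particular to members. The end of CACGTG can share its last bases with the start of TGCCGC, and a match describes letters only.

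The iKO libraries held 79929994 and 70974957 reads over CpGs and the controls 68488024 and 64273609, so both iKO libraries were deeper than both controls. Reads over Ogt itself (chrX:101640011-101684351, 441 CpGs) made up 0.0645% and 0.0621% of those on chromosome X in the iKO libraries against 0.0661% and 0.0615% in the controls, a sum over the whole gene that does not resolve its floxed part and so does not check the deletion. Members held 40 to 108 CpGs with a median of 44. The shallowest library had 10 to 833 reads per member with a median of 69, and 203 members had 100 or more reads in every library. At the edges of the rule, 159 members held exactly 40 CpGs while 172 windows of the same level held 39. The lowest member mean was 20.003% and the highest non-member mean below it was 19.980%. A further 14 CpG-dense windows in the level range were left out for fewer than 10 reads in a library.

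Half-methylated windows carried less methylation in Ogt iKO cells. On average over members, iKO replicate 1 read 27.0%, iKO replicate 2 26.8%, control replicate 1 34.6% and control replicate 2 36.8%, so the groups did not overlap. The iKO mean of 26.9% ± 0.126 and the control mean of 35.7% ± 1.58 (SD, n = 2 each) differed by -8.80 percentage points (iKO minus control), with a pooled SD of 1.12 points. The two-sided exact permutation p was 0.333, the lowest that 6 arrangements of the labels allow, so no library-level difference could pass 0.05 in this exact test. The control replicates differed from each other more than the iKO replicates did.

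**Figure D1:**
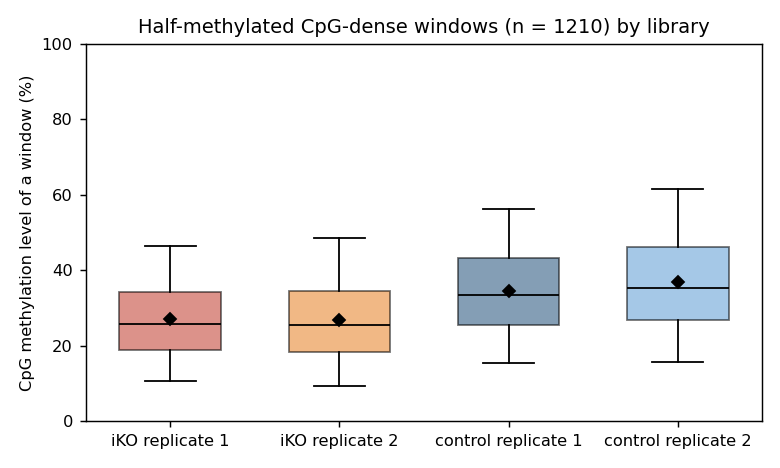
Methylation level (%) of the 1210 half-methylated CpG-dense windows in each library; boxes span the quartiles with the median as a line, whiskers run from the 5th to the 95th percentile, and diamonds are means. The means of 27.0% and 26.8% in the iKO libraries lie below the 34.6% and 36.8% of the controls, while the boxes overlap widely.

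Among members, 962 of 1210 had a lower mean in iKO cells, and the median difference was -8.22 points with quartiles of -16.0 and -1.37. In 537 members (44.4%) both iKO libraries lay below both controls, against 41.5% of all 1551101 tested windows and 22.9% of all CpG-dense windows. In 71 members (5.87%) both iKO libraries lay above both controls, against 4.03% of all tested windows. The members' share was thus close to that of the genome at large. Over all tested windows the mean difference was -8.09 points, from a control level of 75.4%, and over all CpG-dense windows -1.61 points, from 9.64%. In points the members were thus near all tested windows and not near CpG-dense windows. Relative to the control level the loss was 24.6% in members, 10.7% in all tested windows and 16.7% in all CpG-dense windows.

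Relative to their own level, the difference at half-methylated windows was close to that at other windows of that level. It was larger than over all CpG-dense windows at 50% or more, most of which lay at 70% or more. The iKO level was 24.6% lower than the control level in members. In the 86964 tested windows with fewer than 40 CpGs and a mean from 20% to under 50%, the difference was -10.3 points, or 23.9% of the control level. In CpG-dense windows from 10% to under 20% the difference was -3.63 points (23.2%), and in those at 50% or more -8.22 points (10.1%). Within the latter set it was -13.1 points (19.96%) in the 312 windows from 50% to under 70%. In the 748 windows at 70% or more it was -6.17 points (7.02%). The class next above the members thus lay much nearer to their 24.6% than the whole set did. On the log odds scale the gap between members and CpG-dense windows at 50% or more was -2.06 and -1.94 in the iKO libraries against -1.99 and -2.15 in the controls. These groups overlapped, and the difference of 0.07 was smaller than the pooled SD of 0.10 (two-sided exact permutation p = 0.667). On a log ratio scale the difference was -0.18, with the opposite sign, so members and methylated CpG-dense windows were not shown to differ in their change independently of scale.

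The difference grew with the level of the window. It was -7.48 points in the 622 members from 20% to under 30%, -9.33 in the 352 from 30% to under 40% and -11.45 in the 236 from 40% to under 50%, while the loss relative to control was 26.7%, 23.7% and 22.8%. Chromosomes differed from -5.76 points on chromosome 7 (101 members) to -14.2 on X (28 members).

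Single windows seldom passed the genome-wide test. In a quasi-binomial model of methylated and total reads in every window (limma-moderated dispersion, Benjamini-Hochberg adjustment over all tested windows), calls needed an adjusted p below 0.05 together with 10 or more points between the group means. Of the members 4 were called (0.331%), all of them lower in iKO cells, against 0.457% of all tested windows and 0.219% of CpG-dense windows. Over all tested windows 0.456% were called lower and 0.00148% higher, and of the members 0% were called higher. An unadjusted p under 0.05 was reached by 209 members (17.3%), against 14.7% of all tested windows and 8.89% of CpG-dense windows. Both shares were near those of all tested windows, and the unadjusted share lay above that of CpG-dense windows. With limma on logit levels 0 members were called (146 at an unadjusted p under 0.05), with edgeR on the CpG-dense windows 1, and with 1 common prior dispersion for all windows 160.

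The called window with a germ cell gene lay within Zcwpw1, whose product reads histone methylation at meiotic recombination sites (chr5:137788001-137789000, near the lower end of the annotated span of 137787157 to 137822621). Its level was 18.5% and 28.4% in iKO cells and 49.3% and 63.1% in controls, over 103 to 162 reads per library. The difference was -32.7 points (adjusted p = 0.0490 in the quasi-binomial model, 0.738 with edgeR and 0.451 with limma). Both iKO libraries lay far below both controls. Methylation climbed along this window, from 20.8% in the first 250 bp to 67.7% in the last, between an upstream neighbour at 1.71% and a downstream neighbour at 74.7%.

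A pair of called windows on chromosome 10 had no annotated gene within 1 kb. At chr10:16777001-16778000 the level was 26.5% and 28.9% in iKO cells against 54.2% and 68.3% in controls, over 164 to 324 reads, a difference of -33.5 points (adjusted p = 0.0375 in the quasi-binomial model, 0.915 with edgeR and 0.451 with limma). At chr10:122114001-122115000 it was 14.3% and 35.2% against 46.7% and 55.2%, a difference of -26.2 points (adjusted p = 0.0270 in the quasi-binomial model, 0.943 with edgeR and 0.456 with limma). The groups did not overlap in either window. In the latter the iKO replicates (24.7% ± 14.8, SD, n = 2) were farther apart than the controls (51.0% ± 6.06, SD, n = 2), and the difference was -15.8 points without iKO replicate 1. Its quasi-binomial p-value used the dispersion common to its level class (4.33) and not the window's own (16.0). The unequal iKO replicates therefore did not enter that p-value.

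The remaining called window lay within Gm39497 on X (chrX:17513001-17514000) and rested on as few as 27 reads in a library. It is named because only 4 windows were called, and it had too few reads for the rule on named windows. Its level was 3.70% and 0% in iKO cells and 46.5% and 70.1% in controls, a difference of -56.5 points (adjusted p = 0.00435, quasi-binomial model; 0.0188 with edgeR and 0.451 with limma). Without iKO replicate 1, iKO replicate 2 or control replicate 2, 0 of the 4 remained called, and without control replicate 1 only the window in Gm39497 did.

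**Figure D2:**
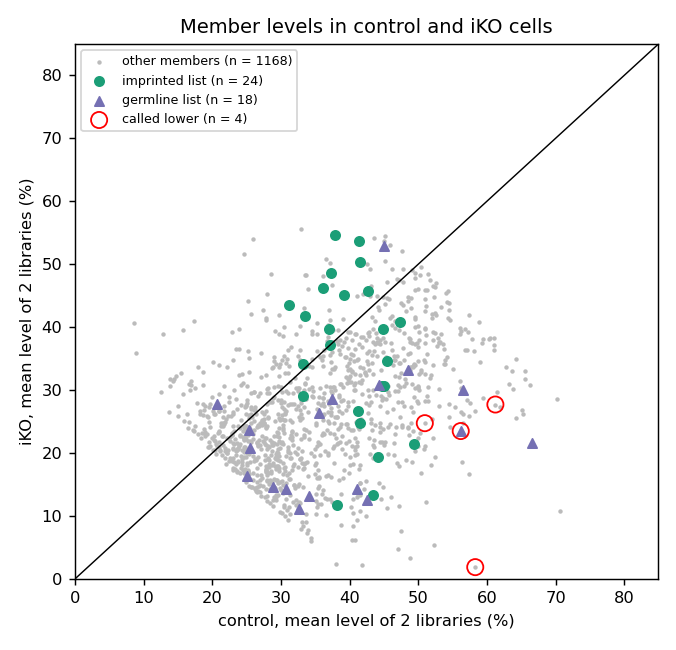
Mean level of the 2 iKO libraries against that of the 2 control libraries (both in %) for each member, with windows near imprinted genes, windows near germline genes and the 4 called windows marked; the line marks equal levels. Of the 1210 points 962 lie below the line, the 4 called windows all lie below it, and the 24 imprinted windows scatter to both sides, 12 below and 12 above; the oblique lower edge of the cloud is the 20% limit of the rule.

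Replicates differed more at half-methylated windows than counting error gives. After removing the median difference over all tested windows, the root mean square difference between replicates came to 12.98 points (iKO) and 15.9 points (control), against 6.55 and 7.44 points from binomial counting. The ratios were 1.98 and 2.14, compared with 1.34 and 1.39 in windows of the same level with fewer than 40 CpGs and 1.22 in all tested windows of either group. In CpG-dense windows at 50% or more they were 2.06 and 1.84, and in those under 20%, whose own median difference was 0, they were 1.94 and 2.34. Such ratios were thus shared by CpG-dense windows of all levels. The differences themselves were not larger in members, with root mean squares of 14.1 and 16.2 points in the windows of the same level with fewer CpGs, where counting error was 10.5 and 11.7 points. Replicates stood over 20 points apart in 133 members in iKO cells (11.0%) and 223 in controls (18.4%), against 13.6% and 12.01% of all tested windows and 14.8% and 20.8% of the windows of the same level with fewer CpGs. Among the 203 members with 100 or more reads in every library the ratios remained at 2.04 and 2.17. Many CpGs per read raise this ratio, since they are counted as separate reads, and its share was not tested.

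**Figure D3:**
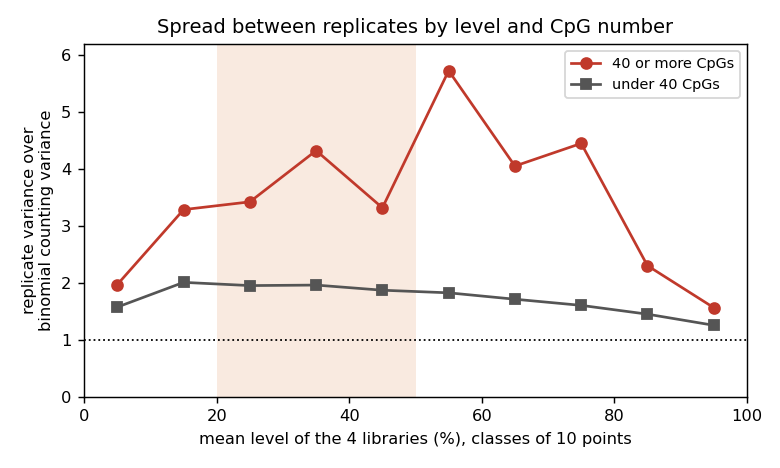
Replicate variance over binomial counting variance (1 is counting error alone, dotted line), the value to which the model shrinks each window, by mean level in classes of 10 points and by CpG number; the shaded band is the level range of the half-methylated windows. In that band windows with 40 or more CpGs stand at 3.43, 4.33 and 3.32 and windows with fewer CpGs at 1.95, 1.96 and 1.87.

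Of the 5 largest replicate differences among members with 100 or more reads in every library, 2 lay at genes of the imprinted list (Peg10 with Sgce, and Gnas), 1 at Impact, which is known to be imprinted but is not on that list, and the others at Pik3r4 and D1Pas1. At chr6:4747001-4748000, where the spans of Peg10, a retrotransposon-derived placental gene, and Sgce, which encodes a sarcoglycan, meet, the controls read 59.2% and 23.9% and the iKO libraries 42.6% and 58.2%. At chr2:174300001-174301000 within Gnas, the gene of the stimulatory G protein alpha subunit, the controls read 26.3% and 63.8% and the iKO libraries 31.9% and 29.2%. In both windows 1 control replicate stood on either side of the iKO libraries.

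Of the other 3, 1 had unequal iKO replicates, 1 unequal controls and 1 both. Within Impact, a translational regulator (chr18:12973001-12974000), the iKO libraries read 16.8% and 45.5% and the controls 33.1% and 34.0%. Within Pik3r4, a regulatory subunit of a class III phosphoinositide 3-kinase (chr9:105644001-105645000), the controls read 40.5% and 10.5% and the iKO libraries 19.9% and 24.0%. Within D1Pas1, an autosomal copy of a DEAD-box helicase gene active in testis (chr1:186968001-186969000), the iKO libraries read 17.0% and 39.1% and the controls 40.6% and 74.4%. In the last the groups did not overlap, with a difference of -29.5 points (adjusted p = 0.184, quasi-binomial model), which ranged from -46.4 to -12.6 on leaving out control replicate 1 or 2 and was -18.5 when iKO replicate 1 was dropped.

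CpG levels varied within most members. The 4 segments of 250 bp could be measured in 547 members (5 or more CpGs and 40 or more pooled reads each), and the range between the highest and the lowest segment had a median of 36.4 points. In 93 members the range was under 20 points (even windows), in 69 it was 60 points or more (stepped windows), and 385 lay between. After subtracting counting error, the standard deviation of CpG levels within a window had a median of 17.6 points over all 1210 members, with quartiles of 12.7 and 22.2. Among CpGs with 5 or more pooled reads, the median member had 47.1% at a level of 20% or less, 50.0% between 20% and 80% and 2.44% at 80% or more. The segment levels, this standard deviation and these shares pool the 4 libraries, and the level range of the rule bears on them.

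The windows next door differed with the shape. Of 290 members with both neighbouring windows at 50% or more, 160 could be classed, 25 were even and 11 stepped. Of 206 members with a neighbour under 20% on the other side of one at 50% or more, the layout of an island border, 85 could be classed, 7 were even and 21 stepped. Of 65 members with both neighbours from 20% to under 50%, 49 could be classed, and 23 were even and 1 stepped. Members rarely sat side by side, with 1102 single windows, 48 runs of 2 and 4 runs of 3. The 294 members with a neighbour under 10 reads had fewer reads per CpG themselves (median 6.32 over the 4 libraries, against 9.19 in all members) and a difference of -11.7 points.

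The windows with the largest spread of CpG levels, among members with 100 or more reads in every library, included steep changes along the window. At chr13:3611001-3612000, which holds a RefSeq start site of Tasor2, a relative of the HUSH subunit gene Tasor, the low end covers the promoter printed above. The pooled level was 0.593% in the first 250 bp, 7.80% in the next and 92.5% in the last, while the third had too few CpGs or reads, so the window was not classed by shape. Its neighbours read 0.395% and 90.5%, the layout of an island border. The whole window read 20.2% and 19.2% in iKO cells and 25% and 30.25% in controls, a difference of -7.94 points (adjusted p = 0.572, quasi-binomial model). At chr13:62813001-62814000 within Gm7049 the segments climbed from 4.55% through 23.4% and 72.7% to 80%, between neighbours at 27.95% and 77.5%. That window read 42.6% and 29.9% in iKO cells and 59.7% and 56.5% in controls, with groups apart and a difference of -21.8 points (adjusted p = 0.200, quasi-binomial model).

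Of the 3 other windows with the largest spread, 1 lay within a gene. Within Catip, a gene linked to cilia formation (chr1:74368001-74369000), the segments read 17.0%, 8.78%, 36.2% and 74.0%. At chr6:47767001-47768000, over 1 kb from a gene, they fell from 70.2% through 29.0% and 2.94% to 0%. At chr10:46586001-46587000, also over 1 kb from a gene, the level was 36.8% and 31.3% in iKO cells and 41.2% and 57.7% in controls.

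**Figure D4:**
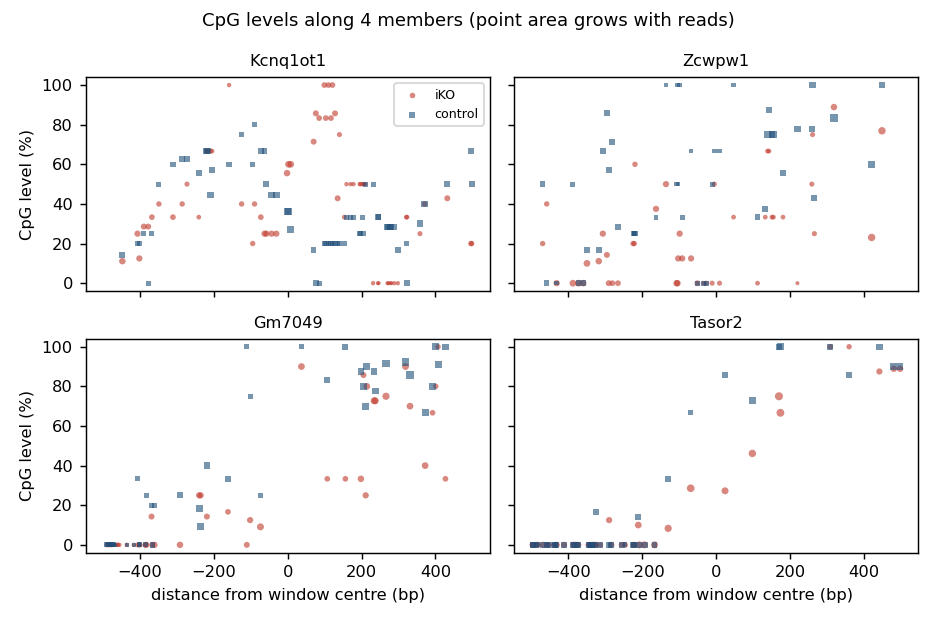
Level of each CpG (%) against its distance from the window centre (bp) in 4 members, with the 2 libraries of a group pooled and the point area growing with reads; genes name the windows. In Tasor2 and Gm7049 the level climbs from near 0% to the segment levels of 92.5% and 80% at the right end, in Zcwpw1 control CpGs stand mostly above iKO CpGs, and in Kcnq1ot1 the segment levels, which pool both groups, stay between 30.5% and 49.0%, while from 70 to 128 bp right of the centre iKO CpGs read 71.4% to 100% and control CpGs 0% to 20%, on 3 to 7 reads each.

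Differences between the groups were larger in the more methylated segments, and close to each other relative to the control level. Ranked within each member by level, the 4 segments read 14.5% ± 0.591, 22.2% ± 0.143, 33.9% ± 0.137 and 47.9% ± 0.0426 in iKO cells and 18.6% ± 0.968, 28.0% ± 1.14, 43.4% ± 1.91 and 59.6% ± 3.43 in controls (SD, n = 2 each). The differences were -4.08, -5.77, -9.58 and -11.7 points, or 22.0%, 20.6%, 22.0% and 19.6% of the control level. The gap between the most and the least methylated segment was 33.6 and 34.4 points in the iKO libraries against 39.2 and 43.6 in the controls, a difference of -7.38 points (pooled SD 2.20, two-sided exact permutation p = 0.333, the smallest possible). The levels used to rank the segments were sums over all 4 libraries.

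The spread of CpG levels within a window was smaller in iKO cells. Over the 519 members with 20 or more CpGs of 2 or more reads in every library, its median was 17.5 and 18.1 points in the iKO libraries against 19.8 and 21.7 in the controls, a difference of -2.96 points (pooled SD 0.998, two-sided exact permutation p = 0.333, the smallest possible). It was smaller in 322 of the 519 windows (62.0%), in 33 of the 41 stepped windows among them (80.5%) and in 25 of the 52 even windows (48.1%). The mean level of these windows was also lower in iKO cells, 27.5% against 35.4%, and the part of the level in the spread was not tested. With an equal number of reads per CpG in every library and no correction for counting error, the difference was -0.936 points over the 135 windows that this left, so reads, correction and windows changed together.

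Even and stepped members were both lower in iKO cells. The 93 even windows read 29.1% ± 0.0410 in iKO cells and 37.7% ± 0.509 in controls, and the 69 stepped windows 27.0% ± 0.0488 and 34.4% ± 1.79 (SD, n = 2 each). The differences were -8.62 and -7.42 points. The even-minus-stepped gap was 2.14 and 2.16 points in the iKO libraries against 4.25 and 2.44 in the controls, a difference of -1.20 points (pooled SD 0.907, two-sided exact permutation p = 0.333, the smallest possible). With 50 or more CpGs it was 1.39 points, of the opposite sign, and it was -0.291 points without control replicate 1 and -2.10 without control replicate 2.

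Members were lower in iKO cells in each class of location. A RefSeq start site lay in 148 members, 320 others had a gene end within 1 kb, 490 lay inside a gene farther from its ends, and 252 lay outside genes. The control levels were 32.8%, 33.7%, 36.9% and 37.6%, and the differences -9.49, -8.10, -8.17 and -10.5 points, in that order. Windows outside genes also had the fewest reads, with a median of 6.74 per CpG over the 4 libraries, against 9.31 at start sites. Of the 64 start-site windows that could be classed 2 were even and 16 stepped, and of the 260 inside genes 57 were even and 24 stepped. The level at gene ends minus that farther away was -4.31 and -2.53 points in the iKO libraries against -3.65 and -3.78 in the controls, with overlapping groups and a difference of 0.297 points (two-sided exact permutation p = 1). Its sign turned without iKO replicate 2 and with stricter minimums of CpGs or reads.

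**Figure D5:**
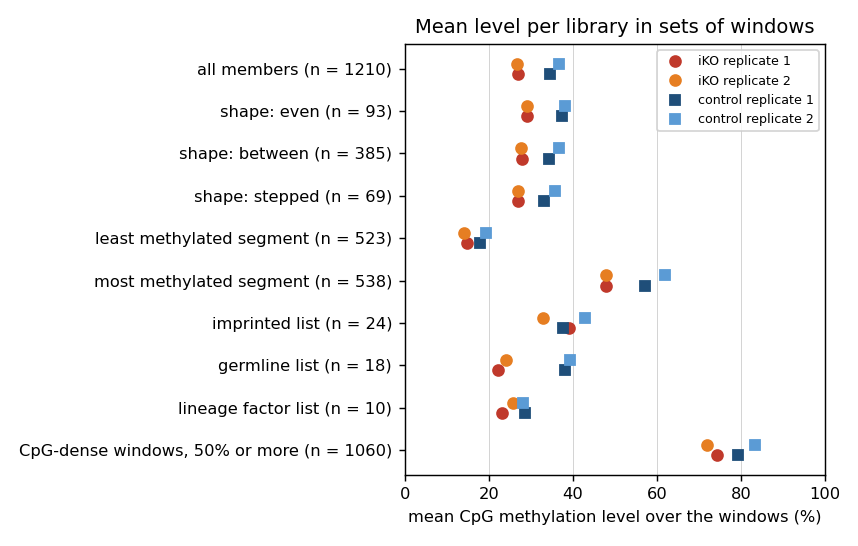
Mean methylation level (%) per library (circles iKO, squares control) over all members, members by shape, the least and the most methylated 250 bp segment of a member, 3 gene lists and, for comparison, CpG-dense windows at 50% or more; n is the number of windows or segments. The iKO libraries lie left of both controls in each set except the imprinted list, where iKO replicate 1 at 39.1% lies between the controls at 37.6% and 42.9%.

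Imprinted loci made up 24 members, near 22 genes, out of 101 CpG-dense windows within 1 kb of the 62 listed imprinted genes found in the RefSeq table. At imprinting control regions 1 parental allele is methylated in the germline and stays so in the embryo. These members read 39.1% and 32.9% in iKO cells and 37.6% and 42.9% in controls, which is -4.31 points with a pooled SD of 4.07, and the groups overlapped. Of the 24 windows 12 were lower and 12 higher in iKO cells, 7 had both iKO libraries below both controls (41.5% of all tested windows did), 3 above (4.03%), and 0 were called (0.457%). The median difference was -2.09 points, with a range of -30.1 to 16.8. Of 18 that could be classed 10 were even, and the median spread of CpG levels was 3.21 points, against 17.6 in all members. Both measures pool the 4 libraries and do not show that single libraries were even. The subtraction of counting error treats CpGs as read independently, while neighbouring CpGs share fragments, so a low spread does not show even CpG levels. At Nnat (chr2:157560001-157561000) the spread was 0, while the segments ran from 17.3% to 51.4%. Without these windows the difference over members was -8.89 points.

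Of the members with 100 or more reads in every library, 8 had a spread of CpG levels of 0 after subtracting counting error, which is the floor of this measure. The spread was taken over the reads of the 4 libraries pooled, so single libraries can be uneven. Since neighbouring CpGs share fragments and the subtraction treats them as independent, a value of 0 does not show even CpG levels. These 8 windows were tied, and 5 of them lay at genes of the imprinted list: Gnas, the 2 windows at Peg10, Peg3 with Usp29, and Kcnq1ot1. The 5 came first in genome order, which broke the tie for the windows named here. The other 3 were Impact and 2 windows over 1 kb from a gene, singled out with their values known. At chr10:35310001-35311000 the level was 35.6% and 44.2% in iKO cells and 50.2% and 43.2% in controls, and at chr11:12146001-12147000 it was 31.9% and 23.2% against 22.8% and 42.1%. The groups overlapped in both. At chr7:6730001-6731000, where Peg3, a zinc finger gene, and Usp29, a ubiquitin protease gene, start in opposite directions, the level was 39.5% and 28.9% in iKO cells and 34.3% and 32.3% in controls, a difference of 0.942 points. The segments of this window, which holds the Peg3 promoter printed above, read 28.2% to 36.3% with the 4 libraries pooled. Over the promoter alone the controls read 81.8% and 0%, on 11 and 56 reads. In the adjoining member at chr7:6729001-6730000 the groups did not overlap and differed by -14.5 points (adjusted p = 0.485, quasi-binomial model). Its level was 20.8% and 32.7% in iKO cells and 33% and 49.5% in controls. At chr7:143295001-143296000, in Kcnq1ot1, a long noncoding RNA that silences its neighbours on the paternal chromosome, it was 46.4% and 45.9% against 31.7% and 40.6%, a difference of 9.97 points (adjusted p = 0.586, quasi-binomial model), or 5.53 points without control replicate 1. Here both iKO libraries lay above both controls, unlike the members at large.

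The largest difference among the imprinted windows lay at Zrsr1, a splicing factor gene within an intron of Commd1. At chr11:22972001-22973000 the level was 8.38% and 18.3% in iKO cells and 36.6% and 50.3% in controls, a difference of -30.1 points (adjusted p = 0.0962, quasi-binomial model, 159 to 265 reads). The neighbouring window at chr11:22973001-22974000 read 16.0% and 33.6% against 38.5% and 44.4%. The groups did not overlap in either window. At Airn, the noncoding RNA that silences Igf2r, the windows chr17:12741001-12742000 and chr17:12742001-12743000 read 34.2% and 4.55%, and 40% and 2.70%, in iKO replicates 1 and 2, against 35.7% and 52.6%, and 57.7% and 41.2%, in the controls. In both windows iKO replicate 2 was far below the other 3 libraries.

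Within the remaining imprinted windows no common direction was seen. Within Grb10, a growth factor receptor adaptor (chr11:12026001-12027000), the level was 33.1% and 28.1% in iKO cells and 50.2% and 39.2% in controls. At Inpp5f, an inositol phosphatase gene (chr7:128688001-128689000), it was 49.2% and 48.0% against 42.3% and 32.2%. At Nap1l5 within Herc3 (chr6:58906001-58907000) the controls read 14.3% and 68.3%, around iKO levels of 48.7% and 58.8%. Within Gnas, chr2:174297001-174298000 read 68.6% and 40.7% in iKO cells and 38.4% and 37.3% in controls, a difference of 16.8 points with groups apart. The next window, chr2:174298001-174299000, read 32.1% and 25.9% against 36.5% and 30%, a difference of -4.25 points with overlapping groups. None of these passed the test.

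Germ cell genes made up 18 members, near 18 genes, out of 49 CpG-dense windows within 1 kb of the 64 genes of the germline list found in the table. CpG-island promoters of such genes are known to be methylated outside the germline. These members read 22.1% and 24.1% in iKO cells and 38.1% and 39.3% in controls, a difference of -15.6 points (pooled SD 1.17), or 40.3% of the control level, beside 24.6% in all members. Of the 18 windows 16 were lower, 13 had both iKO libraries below both controls (44.4% of all members and 41.5% of all tested windows did), 1 was called (0.331% of members and 0.457% of all tested windows were) and 0 of 10 classed windows were even. The differences ranged from -45.0 to 7.90 points with a median of -14.8. The list was chosen with earlier results of these data known and is no independent evidence of its direction.

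Start sites of meiotic and germ cell regulators were among them. In the window at the start of Dazl, a germ cell RNA-binding protein gene (chr17:50293001-50294000), the level was 5.22% and 19.8% in iKO cells and 34.8% and 50.3% in controls. The difference was -30.0 points (adjusted p = 0.133, quasi-binomial model, 91 to 155 reads), and the groups did not overlap. Its segments read 5.00%, 7.62%, 41.6% and 48.8%, with the promoter printed above in the third and the fourth. At the start of Sycp2, a synaptonemal complex gene (chr2:178407001-178408000), the level was 16.7% and 9.76% against 27.8% and 40.4%, and at the start of Sohlh2, a germ cell transcription factor gene (chr3:55182001-55183000), 24.3% and 35.7% against 70.4% and 42.6%. In both windows the iKO libraries lay below the controls, by 20.9 and 26.5 points, without passing the test (adjusted p = 0.225 and 0.217, quasi-binomial model). At Sohlh2 the difference was -12.5 points without control replicate 1 and -40.4 without control replicate 2.

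Differences at Rad21l and Tdrd1 were smaller. At Rad21l, a meiotic cohesin gene (chr2:151670001-151671000), the level was 13.01% and 19.6% in iKO cells and 24.6% and 25.5% in controls. At the start of Tdrd1, a Tudor domain gene of the piRNA pathway (chr19:56826001-56827000), it was 33.3% and 14.1% against 16.1% and 34.6%, with overlapping groups and a difference of -1.63 points.

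Developmental transcription factors were rarely half-methylated. Of 395 CpG-dense windows near genes of the homeobox and lineage factor list 10 were members (2.53%), beside 5.90% of all CpG-dense windows. The share was 23.8% near imprinted and 36.7% near germline genes, and as low near pluripotency (3.28% of 61) and trophoblast genes (2.56% of 39). The 10 lineage factor members read 23.1% and 25.8% in iKO cells and 28.5% and 28.2% in controls. Their difference was -3.93 points (pooled SD 1.34), with 6 lower and 4 higher. In 4 of the 10 both iKO libraries lay below both controls (41.5% of all tested windows), and 0 were called (0.457%). Islands of such genes are usually broad and unmethylated in stem cells. Within Lhx3, a pituitary LIM homeobox gene (chr2:26203001-26204000), the segments climbed from 8.33% and 14.9% to 68.2% and 66.2%, and the window read 29.8% and 31.7% in iKO cells and 43.3% and 38.0% in controls. At Nkx2-5, a cardiac factor gene (chr17:26844001-26845000), they dropped from 66.7% and 24.5% to 7.89% and 8.04%, and the window read 20.8% and 26.1% against 31.0% and 18.02%.

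The differences of the 10 lineage factor windows ranged from -14.6 to 5.62 points. At Hoxb3 (chr11:96314001-96315000) the level was 19.9% and 41.5% in iKO cells and 32.6% and 17.6% in controls. At Sox7, an endodermal factor gene (chr14:63944001-63945000), it was 26.2% and 28.9% against 30.5% and 19.5%, and at Pax1, a sclerotome factor gene (chr2:147373001-147374000), 24.2% and 34.9% against 21.7% and 34.7%. At Irx4, a ventricular factor gene (chr13:73264001-73265000), it was 24.1% and 6.25% against 29.2% and 29.9%, where the groups did not overlap and differed by -14.4 points (adjusted p = 0.427, quasi-binomial model; -5.42 points without iKO replicate 2 and -23.3 without iKO replicate 1), and iKO replicate 2 was far lower than the other 3 libraries.

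Pluripotency, trophoblast and 2-cell-stage genes contributed 3 members. Within Tet3, the gene of a 5-methylcytosine dioxygenase (chr6:83368001-83369000), the level was 39.7% and 35.4% in iKO cells and 35.6% and 39.5% in controls. Within Sall4, a pluripotency factor gene (chr2:168755001-168756000), it was 28.4% and 32.1% against 52.3% and 46.6%, a difference of -19.2 points with groups apart (adjusted p = 0.381, quasi-binomial model). Within Hand1, a factor of trophoblast giant cells (chr11:57831001-57832000), it was 26.5% and 19.13% against 24.6% and 21.2%. Of the 4 CpG-dense windows near genes of the 2-cell-stage list 0 were members.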

How the data were processed

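Whole-genome bisulfite libraries of 2 Ogt iKO and 2 control samples were compared. The authors aligned reads with BSMAP to mm10 and tabulated CG positions, per the submitters' processing notes, which also name Picard; versions and filters are not given in the sources used here. Per the file headers, the deposited columns are counts of methylated and of C or T reads per CpG and of G and of G or A reads on the opposite strand, an expected count (those reads corrected with the G share on the other strand) and the authors' level as a fraction, which was not used. Files were matched to samples by the genotype and replicate in their names.

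Counts were joined by position (PyArrow 21.0.0, pandas 2.3.3) and summed in 1 kb windows. The quasi-binomial model (group only, F test) ran on all windows with 5 or more CpGs and 10 or more reads per library. Its Pearson dispersion was moderated with limma 3.58.1 in R 4.3.3, separately by CpG number (40 or more, or fewer) and by 10-point class of mean level, in place of a smooth trend, and kept at 1 or more. In some classes limma gave every window the same dispersion, so that a window's own replicate spread did not enter its p-value. The class of CpG-dense windows from 30% to under 40%, which held 3 of the 4 called members, was among them. edgeR 4.0.16 ran on CpG-dense windows only, with p-values adjusted over these. Values per library entered two-sided exact permutation tests. Gene spans are those of RefSeq (GRCm38.p6), whose table lists no exons, so exons and introns were not assigned. Listed CpGs inside RefSeq promoters fell on a CG of the sequence in 100% of 404109 cases.

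Simulated counts for the 1551101 windows had iKO set below control by 15 or 30 points in 200 members. That difference was made by lowering iKO and raising control by equal amounts. The model called 0 of 100 members with a difference of 15 points, 11 of 100 with 30 points, and 0 unchanged windows. Of the changed members 42 and 91 reached an unadjusted p under 0.05 in the model. With so few windows changed, the adjustment is stricter there than in the real data. Counts were drawn with the dispersion to which the model shrinks each window. Windows with unusually unequal replicates were therefore not imitated, and the 0 calls of unchanged windows do not cover them. Without molecular identifiers, and with several CpGs on each fragment, reads outnumber independent molecules. Members and gene lists were chosen with earlier results of these data known. Named windows are the 5 largest called changes in each direction, the 5 smallest (ties in genome order) and largest spreads and the 5 largest replicate differences, each with 100 or more reads in every library, and up to 6 windows per gene list with most reads; any other was singled out with its values known. Tried alternatives were read, CpG and level limits, window offset, denominator, deep CpGs, thinning, left-out libraries, replicate block, other tests, priors and thresholds.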

Additional observations from a re-analysis of the deposited data

How the results depend on the processing

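The difference over members stayed between -10.0 and -7.68 points in all 15 alternatives, the spread within windows between -4.57 and -0.936 in 14, and the gap between segments between -9.39 and -5.53 in 13. The number of called members, 4, was 160 with 1 common prior dispersion (158 lower, 2 higher), 8 with 40 or more reads per library (3 of the 4 among them), 5 with reads thinned to the shallowest library (2 of the 4), 3 without CpGs over 5 times the median depth (Zcwpw1 at an adjusted p of 0.0514, quasi-binomial model), 13 with windows shifted by 500 bp, 1 with 50 or more CpGs, 1 with edgeR and 0 with limma on logit levels. Leaving out a library gave 0 to 2 calls: 2 without iKO replicate 1 (0 of the 4 among them), 0 without iKO replicate 2, 2 without control replicate 1 (1 of the 4) and 0 without control replicate 2; the lone library is then assumed to vary like the other group. With the replicate number as a block 2 of the 4 were called, while Zcwpw1 (adjusted p = 0.0677) and chr10:16777001 (0.0781, both quasi-binomial model) were not. Same-numbered libraries did not deviate together (correlation -0.00747 over all tested windows, -0.0508 over members). Differences of single windows hold much counting error, so this cannot tell whether same-numbered libraries shared a culture or preparation. No pairing was assumed. The causes were not tested.

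The change against methylated CpG-dense windows (0.07 log odds) was -0.176 as a log ratio, -0.576 in points and -0.00239 with 50 or more CpGs, and ranged from -0.0157 to 0.147 on leaving out a library. Even against stepped members gave 1.39 points with 50 or more CpGs. Gene ends against the rest gave -0.830 points with 50 or more CpGs, -0.399 with 40 or more reads, and -0.594 to 1.19 on leaving out a library.

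Several named windows changed sign on leaving out a library, also Gnas and Peg10 with differences of -14.5 and 8.82 points over all libraries, with ranges in points of -3.78 to 3.598 (Hand1), -5.22 to 16.4 (Hoxb3), -2.94 to 8.06 (Sox7), -7.49 to 5.44 (Nkx2-5, and 0.417 after thinning), -16.8 to 11.9 (Impact), -11.2 to 7.99 (Tdrd1), -5.17 to 7.86 (Pax1), -33.3 to 4.30 (Gnas at 174300001), -8.81 to 26.4 and -7.66 to 13.1 (Peg10 at 4747001 and 4748001), -15.4 to 6.26 (chromosome 6 at 47767001), -2.13 to 2.20 (Tet3), -4.38 to 6.27 (Peg3) and -18.6 to 11.5 (Pik3r4). The called windows kept their sign in every alternative run. The lowest of the 4 library counts of a member had a median of 69 reads, and the part of depth in these changes was not tested.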

Other observations

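Half-methylated windows were unevenly spread over chromosomes. They made up 9.64% of the CpG-dense windows of chromosome 10 (107 windows) and 9.19% of those of chromosome 18 (58 windows), against 4.34% on chromosome 19 (30 windows). On chromosome 18, 18 of the 58 lay within 1 kb of clustered protocadherin genes, which encode cell adhesion molecules that neurons express in varied combinations (chr18:36931001-37809000). These 18 windows read 22.1% and 21.6% in iKO cells and 32.6% and 32.9% in controls, a difference of -10.9 points, with 18 of 18 lower (79.5% of all members) and 12 with both iKO libraries below both controls (44.4% of all members and 41.5% of all tested windows). The differences ranged from -23.6 to -1.47 points and 0 windows were called. Of 12 that could be classed 4 were even and 1 was stepped. The protocadherin windows were singled out after their values were seen.

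Of all members, 3 had over 5 times the median reads per CpG of CpG-dense windows. They read 28.3% and 19.7% in iKO cells and 39.3% and 42.3% in controls. Without them the difference over members was -8.78 points.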
